A study of Danio rerio with 7 samples.

Results

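The genes described here are a small amino acid supply group of the zebrafish (Danio rerio) embryo, made up of the transporter genes SLC7A5, slc3a2b and slc7a3a and the enzyme genes asns and gpt2. They were picked by name, as spelled in the deposited table, and are 5 of its 33827 rows. All 5 were chosen with their values in these 6 libraries already known, so their levels and differences are given as a description and no p-value is attached to them. The libraries are RNA from sox10-positive cells sorted out of dissociated embryos. In the first group, embryos had received a morpholino against ctr9, a subunit gene of the PAF1 transcription elongation complex, and 32 µM progesterone from 50% epiboly to 15 somites. In the second, embryos had received the same morpholino and DMSO over that window, and in the third, uninjected embryos had received DMSO. Each group has 2 libraries. Sample titles number them experiment 1 and 2 in each group. The columns of the uninjected group carry an amount (5 ng, 10 ng) in place of that number, so which of them is which experiment is unknown. Progesterone was thus compared with DMSO here only in embryos that carried the morpholino. The libraries are whole sorted populations, so more or fewer cells of a type and more or less RNA per cell cannot be told apart in any of the values below.

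SLC7A5 (ENSDARG00000051887) encodes the light chain LAT1, which carries leucine and other large neutral amino acids across the plasma membrane. The gene slc3a2b (ENSDARG00000037012) is a zebrafish copy of SLC3A2, which encodes the CD98 heavy chain that takes LAT1 to the membrane, and slc7a3a (ENSDARG00000020645) encodes a carrier of arginine and lysine. Asparagine synthetase, from asns (ENSDARG00000016375), makes asparagine from aspartate and glutamine, and gpt2 (ENSDARG00000012199) encodes the mitochondrial alanine aminotransferase, which links alanine and glutamate to pyruvate and the citric acid cycle. In mammals, a shortage of amino acids is read by the kinase GCN2 through uncharged transfer RNA, translation of the factor ATF4 goes up, and genes such as asns and those of the LAT1 and CD98 chains are known to be transcribed more. A second known reader of amino acid supply is the mTORC1 kinase complex at the lysosome, which responds to the leucine that LAT1 brings in.

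Some facts of the libraries bear on every value. FPKM is a fragment count divided by transcript length and library size. Its sum over genes was 218077 for progesterone experiment 2, against 356240 to 366907 in the other 5 libraries. Of the 13155 genes with a mean of at least 1 FPKM, which were the genes tested, 5.998% and 13.6% had a value of 0 in progesterone experiments 1 and 2, against at most 2.29% in any other library. The median log2 fold change of all tested genes was -0.58 for progesterone against DMSO with the morpholino, -0.67 for progesterone with the morpholino against uninjected, and -0.07 for the morpholino against uninjected in DMSO. Values are therefore given as deposited and also after median-ratio scaling, which brought these medians to -0.08, -0.09 and 0.01. The targeted gene ctr9 had 26.2 and 20.6 FPKM with the morpholino and progesterone, 42.2 and 36.7 FPKM with the morpholino and DMSO, and 16.8 and 19.95 FPKM without injection. Since morpholinos can act without loss of the mRNA, these levels do not test the knockdown. Of 16 crest marker genes, counted by entry with 2 of them named twist1b, 13 had a mean of at least 1 FPKM in each group. Among them sox10 lay between 60.0 and 191.1 FPKM in the 6 libraries. The early crest gene foxd3 was at most 0.659 FPKM, and the cause of its low values was not tested.

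The LAT1 light chain gene stood under 1 FPKM in each library without progesterone and well above it in both with progesterone. SLC7A5 had 13.6 FPKM in progesterone experiment 1 and 4.59 FPKM in experiment 2, against 0.667 and 0.708 FPKM in the morpholino libraries in DMSO. In uninjected cells it stood at 0.764 and 0.6001 FPKM. The 4 libraries without progesterone thus lay within a narrow band, and the lower progesterone library was 6.48 times the higher of the morpholino DMSO libraries. The mean FPKM was 13.2 times as high with progesterone as in DMSO. On a log2(FPKM + 1) scale the change of a gene this low is understated. The difference there was 2.42 ± 0.54 (SE) as deposited and 2.89 ± 0.43 after median-ratio scaling. Each SE in this text comes from a spread pooled over all 3 groups, not only the 2 compared. A gene therefore has the same SE in all 3 comparisons. With a mean of 3.48 FPKM over the 6 libraries, SLC7A5 passed the filter on low values only through the progesterone libraries.

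The heavy chain gene followed the same pattern from a higher base. The gene slc3a2b stood at 19.6 and 9.34 FPKM with progesterone, against 2.49 and 1.40 FPKM in the morpholino DMSO libraries. Uninjected cells had 3.07 and 2.14 FPKM. Both progesterone libraries lay above all 4 others, and the mean FPKM was 7.45 times that of the morpholino DMSO pair. The log2 difference was 2.34 ± 0.47 as deposited and 2.90 ± 0.36 scaled. FPKM is set per length, so the 2 chains can be compared within a library: the SLC7A5 level was 0.691 and 0.491 of the slc3a2b level with progesterone, 0.268 and 0.506 in morpholino DMSO cells, and 0.249 and 0.280 in uninjected cells. Heavy chain mRNA exceeded light chain mRNA in all 6 libraries. The ratios of the progesterone and morpholino DMSO pairs overlap, while those of the progesterone pair lie above both uninjected libraries.

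The arginine and lysine carrier gene differed less. The gene slc7a3a stood at 22.05 and 9.13 FPKM with progesterone, against 6.46 and 3.47 FPKM in the morpholino DMSO libraries. Uninjected cells had 7.99 and 7.55 FPKM. The groups do not overlap, but the progesterone library of experiment 2 was only 1.14 times the higher uninjected library as deposited. After median-ratio scaling the progesterone libraries stood at 23.8 and 15.7, the morpholino DMSO libraries at 5.16 and 3.15 and the uninjected libraries at 6.63 and 5.71 scaled FPKM. The log2 difference from morpholino DMSO was 1.40 ± 0.50 as deposited and 2.01 ± 0.35 scaled.

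**Figure D1:**
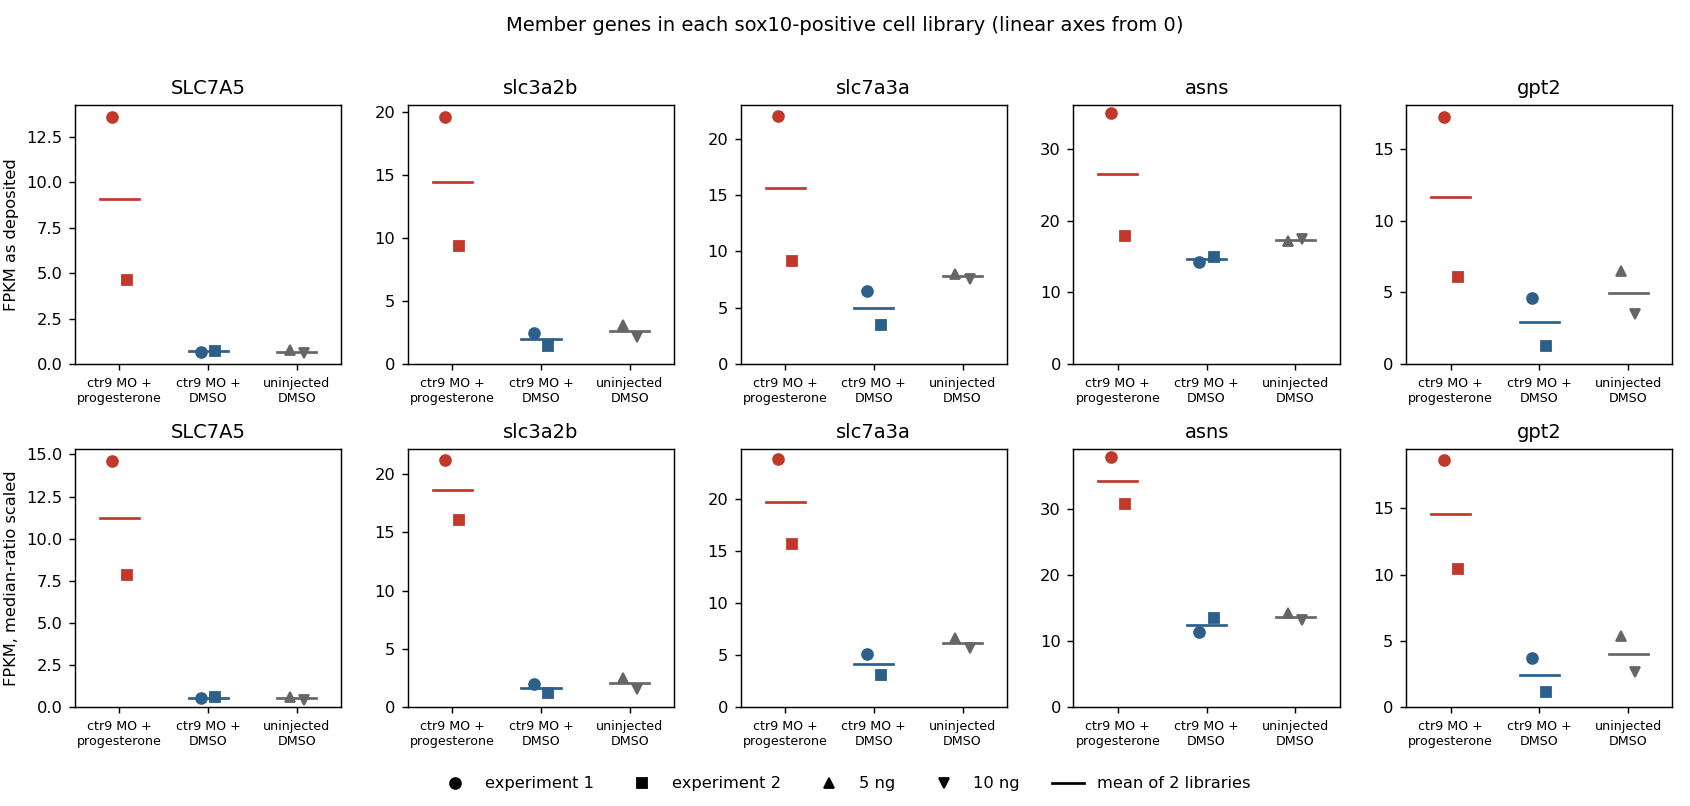
Level of the 5 genes in each library, with FPKM as deposited in the upper row and after median-ratio scaling in the lower row, on linear axes from 0. Points are single libraries and bars the mean of 2. In the lower row both progesterone libraries of each gene lie above the 4 other libraries, and in the upper row gpt2 is the gene for which they do not.

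Among the enzymes, asns had the highest base level and the smallest difference. It stood at 35.1 and 17.9 FPKM with progesterone, against 14.3 and 15.0 FPKM in the morpholino DMSO libraries. Uninjected cells had 17.2 and 17.4 FPKM. As deposited, the progesterone library of experiment 2 was thus close to the uninjected pair, at 1.03 times its higher library. Scaled, asns stood at 37.9 and 30.8 with progesterone, 11.4 and 13.6 in morpholino DMSO cells and 14.3 and 13.2 in uninjected cells. The log2 difference from morpholino DMSO was 0.74 ± 0.39 as deposited and 1.38 ± 0.24 scaled.

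The alanine aminotransferase gene had the widest spread between libraries of a group on the log2 scale. The gene gpt2 stood at 17.3 and 6.09 FPKM with progesterone, against 4.63 and 1.26 FPKM in the morpholino DMSO libraries. Uninjected cells had 6.49 and 3.48 FPKM. The progesterone pair overlaps the uninjected pair as deposited, and does not after scaling, at 18.6 and 10.4 against 5.38 and 2.63 scaled FPKM. Its log2 difference from morpholino DMSO was 1.67 ± 0.66 as deposited and 2.24 ± 0.54 scaled, with the largest standard errors of the 5 genes.

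Set side by side for progesterone against DMSO with the morpholino, 5 of the 5 genes were higher in both progesterone libraries than in both DMSO libraries, as were 6.86% of all tested genes. Scaled, the counts were 5 of 5 and 20.1%. No gene was called higher at a limma adjusted p of at most 0.05 among the 13155 tested (0% as background), so none of the 5 was. Over all tested genes 247 were higher and 2609 lower at an unadjusted p under 0.05. Scaling gave 1 higher call in all at the adjusted threshold, which is not among the 5 genes (background 0.0076%). The members were chosen from this contrast, so these counts add nothing beyond the values. None of the 5 was lower, where 44.5% of genes as deposited and 24.3% scaled were lower in both progesterone libraries. An exact permutation test of 2 libraries against 2 cannot give a two-sided p below 1 in 3, and none was run.

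All 5 genes were higher in the progesterone library of experiment 1 than in that of experiment 2, by 1.96 times for asns to 2.96 times for SLC7A5. After scaling the gap narrowed to between 1.23 times for asns and 1.86 times for SLC7A5. The size of each difference therefore hangs on which progesterone library is used. Without the library of experiment 2, the log2 differences from morpholino DMSO as deposited were 3.11 for SLC7A5, 2.83 for slc3a2b, 2.36 for gpt2, 2.00 for slc7a3a and 1.21 for asns. Without that of experiment 1 they were 1.73, 1.84, 0.99, 0.81 and 0.28 in the same order. Relative to the median of all tested genes, which was itself lower without experiment 1, the last 5 were 2.62, 2.73, 1.88, 1.70 and 1.17.

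**Figure D2:**
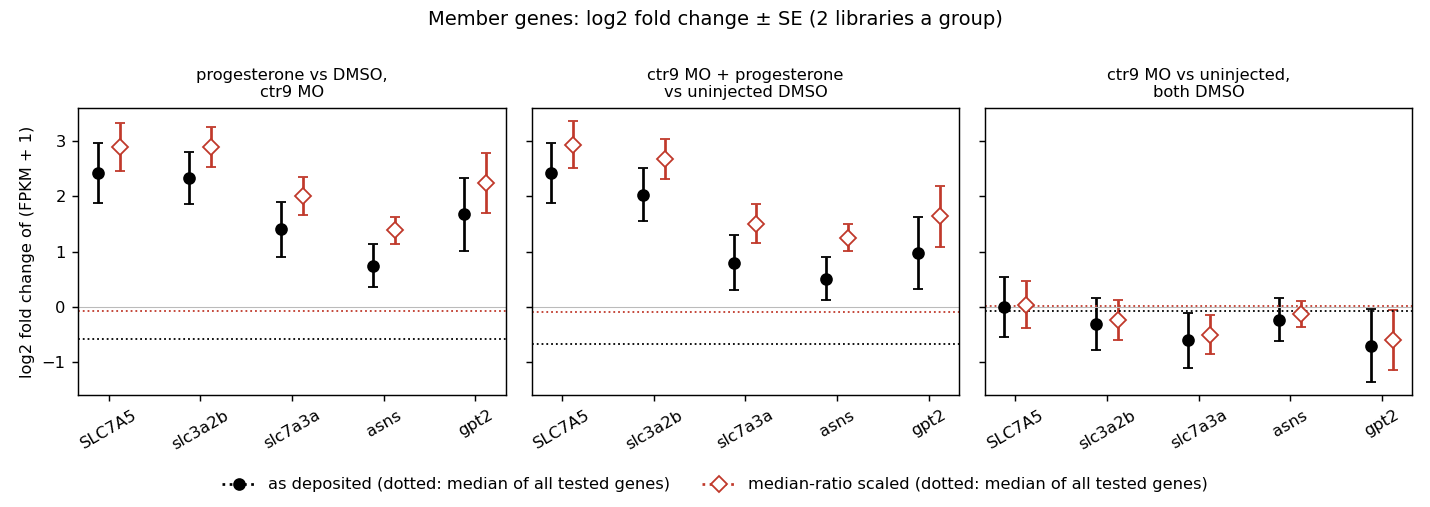
Log2 fold change of (FPKM + 1) with its standard error for the 5 genes in 3 comparisons, as deposited (filled circles) and after median-ratio scaling (open diamonds), beside the median of all tested genes (dotted lines). In both comparisons with progesterone the 5 genes lie above the medians, from 0.51 for asns to 2.43 for SLC7A5 against uninjected cells as deposited, and in the comparison without progesterone 4 of the 5 lie below them.

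A rank within the library does not depend on scaling. It does depend on how many other genes are at 0, which lifts the percentile of any gene still detected. That share was 5.998% and 13.6% in the progesterone libraries, against at most 2.29% in any other. Among the tested genes of its own library, SLC7A5 lay at percentile 79.5 and 64.5 with progesterone, 4.93 and 6.70 in morpholino DMSO cells, and 4.90 and 3.79 in uninjected cells. The gene slc3a2b lay at percentile 86.0 and 81.3 with progesterone, 24.3 and 14.8 in morpholino DMSO cells, and 32.9 and 19.9 in uninjected cells. SLC7A5 is among the tested genes only through its progesterone values, so its low rank elsewhere follows from the filter. The gene slc7a3a lay at percentile 87.7 and 80.7 with progesterone, 53.8 and 38.1 in morpholino DMSO cells, and 61.7 and 57.0 in uninjected cells. The gene gpt2 lay at percentile 84.0 and 71.5 with progesterone, 43.1 and 12.9 in morpholino DMSO cells, and 55.4 and 33.7 in uninjected cells. The gene asns lay at percentile 92.4 and 90.3 with progesterone, 75.9 and 79.6 in morpholino DMSO cells, and 80.7 and 79.4 in uninjected cells, where it was thus already high. By this measure both progesterone libraries lay above all 4 others for each of the 5 genes, which were chosen with these values known. The share of all tested genes with this pattern was not counted, so it does not set the 5 genes apart.

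**Figure D3:**
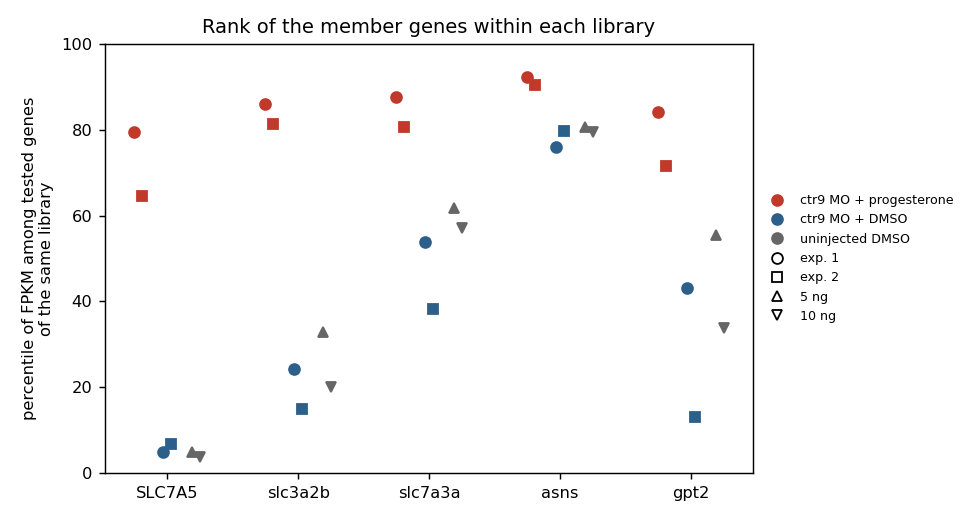
Percentile of each gene's FPKM among the tested genes of the same library, for 6 libraries. The progesterone libraries are the highest for each of the 5 genes, with SLC7A5 between 64.5 and 79.5 there and at most 6.70 elsewhere. The share of all tested genes with this pattern was not counted.

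The 5 genes differed in the size of their differences between groups. By the root mean square difference between their profiles over the 6 libraries, on the log2(FPKM + 1) scale and each centred on its own mean, the closest pair was SLC7A5 and slc3a2b, 0.27 apart. Next came slc7a3a and gpt2 at 0.28, and slc7a3a and asns at 0.36. The widest gap, 0.86, was between SLC7A5 and asns. This scale understates the change of SLC7A5, which was under 1 FPKM without progesterone. The distances were not computed with another pseudocount, so the order of the 2 closest pairs may depend on it.

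Without progesterone, the morpholino libraries stood at or slightly below the uninjected ones. For the morpholino against uninjected in DMSO, the log2 difference was 0.01 ± 0.54 for SLC7A5, -0.30 ± 0.47 for slc3a2b, -0.60 ± 0.50 for slc7a3a, -0.23 ± 0.39 for asns and -0.70 ± 0.66 for gpt2. These standard errors include the spread of the progesterone pair. For SLC7A5 that pair stood at 13.6 and 4.59 FPKM, while the 4 libraries compared lay between 0.6001 and 0.764 FPKM. The slc7a3a and asns groups do not overlap, with 2 of 5 genes lower in both morpholino libraries beside 26.1% of all tested genes. After scaling slc7a3a alone did not overlap, beside 22.1% of genes. None of the 5 was higher in both morpholino libraries, beside 16.5% of genes as deposited and 22.8% scaled. Limma called 0 genes higher and 2 lower in all (0.0152%), neither of them one of the 5. Among the 4 libraries compared, gpt2, slc7a3a and slc3a2b were each lowest in the morpholino library of experiment 2.

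For the morpholino with progesterone against uninjected in DMSO, SLC7A5 was higher by 2.43 ± 0.54 and slc3a2b by 2.03 ± 0.47 on the log2 scale. The other log2 differences were 0.97 ± 0.66 for gpt2, 0.80 ± 0.50 for slc7a3a and 0.51 ± 0.39 for asns. Scaled, they were 2.93 ± 0.43, 2.67 ± 0.36, 1.64 ± 0.54, 1.505 ± 0.35 and 1.26 ± 0.24 in the order SLC7A5, slc3a2b, gpt2, slc7a3a and asns. As deposited, 4 of the 5 genes were higher in both progesterone libraries than in both uninjected ones, beside 5.94% of all tested genes, and scaled 5 of 5, beside 21.4%. Limma called 0 genes higher (0%) and 2 lower (0.0152%), none of the 5, and after scaling 9 higher (0.0684%) and 3 lower (0.0228%), again none of them. None of the 5 was lower in both progesterone libraries, where 53% of all tested genes were as deposited and 27% scaled. Without the progesterone library of experiment 1 the deposited log2 differences of slc7a3a, gpt2 and asns were 0.21, 0.29 and 0.05. This comparison and the first share the progesterone libraries, so it is not a second sighting of the same difference.

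Close relatives of the 5 genes can be set beside them. The other copies of the heavy chain were low: slc3a2a stood at 0.0335 and 0 FPKM with progesterone, 0 and 2.47 FPKM in morpholino DMSO and 1.44 and 0.927 FPKM in uninjected cells, and the copies named SLC3A2 (3 of 4) and SLC3A2 (4 of 4) were at most 1.94 FPKM. Reads of such copies can be split or shared by the authors' quantification, so their exact levels are uncertain. Of the summed FPKM of slc3a2b and slc3a2a, slc3a2b made up 99.8% and 100% with progesterone. Its share was 100% and 36.2% in morpholino DMSO cells and 68.0% and 69.8% in uninjected cells. The gene gpt2l, the paralog of gpt2, stood at 6.66 and 5.59 FPKM with progesterone, against 8.58 and 1.79 FPKM in the morpholino DMSO libraries. Uninjected cells had 8.79 and 7.12 FPKM. The gene gpt2 made up 72.2% and 52.1% of the sum of the 2 FPKM values with progesterone, 35.1% and 41.3% in morpholino DMSO cells and 42.5% and 32.8% in uninjected cells, so gpt2 was the larger of the pair in the progesterone libraries only. For the cationic carriers, the gene named SLC7A1 (2 of 2) stood at 16.1 and 9.36 FPKM with progesterone, against 15.4 and 15.5 FPKM with the morpholino in DMSO. The slc7a3a level was 1.37 and 0.976 of that of SLC7A1 (2 of 2) with progesterone, 0.420 and 0.225 in morpholino DMSO cells and 0.524 and 0.509 in uninjected cells. The gene slc7a2, another cationic carrier, was at most 2.87 FPKM in any library.

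Among the wider families of amino acid transporters, slc1a4, slc6a15 and both slc1a5 entries had the largest differences upward. The solute carrier families 1, 3, 7, 36, 38 and 43 and 8 further carriers gave 61 genes in the table, of which 26 were tested. The other 35 were under the filter and at most 2.47 FPKM in any library. For progesterone against DMSO with the morpholino, 0 of the 26 passed at an adjusted p of at most 0.05, and 4 were higher and 0 lower at an unadjusted p under 0.05, beside 1.88% and 19.8% of all tested genes. Scaled, 10 were higher and 0 lower, beside 7.45% and 9.49%. Without the progesterone library of experiment 1 the counts were 5 and 4, beside 3.83% and 43.1%, and without that of experiment 2 they were 6 and 2, beside 5.07% and 17.7%. Their median log2 fold change was -0.07, against -0.58 for all tested genes, and 20 of the 26 lay above that median. The gene slc1a4, a carrier of alanine, serine and cysteine, stood at 71.5 and 31.5 FPKM with progesterone, against 5.24 and 10.4 FPKM in the morpholino DMSO libraries. Uninjected cells had 12.6 and 11.5 FPKM. Its log2 difference from morpholino DMSO was 2.52 ± 0.50 (limma adjusted p = 0.152).

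A glutamine carrier gene, slc1a5, is in the table under 2 identifiers. ENSDARG00000090706 stood at 18.6 and 11.9 FPKM with progesterone, against 3.06 and 4.07 FPKM with the morpholino in DMSO (log2 difference 1.81 ± 0.37, limma adjusted p = 0.152). ENSDARG00000016465 stood at 32.6 and 13.9 FPKM with progesterone, against 7.22 and 6.34 FPKM with the morpholino in DMSO. The 2 entries may share reads. The gene slc6a15, a carrier of branched-chain amino acids and proline, stood at 17.6 and 4.72 FPKM with progesterone, against 1.09 and 1.68 FPKM with the morpholino in DMSO (2.12 ± 0.62, limma adjusted p = 0.160). At the other end, slc38a3b, a glutamine carrier gene, stood at 2.25 and 0.413 FPKM with progesterone, against 3.39 and 4.20 FPKM in morpholino DMSO cells, and slc7a10b, of the small neutral amino acid carriers, at 0 and 1.22 FPKM against 2.16 and 2.05 FPKM. The third lowest, slc7a6os, fits the name rule but encodes no transporter, and stood at 0.0471 and 0.665 FPKM against 1.21 and 2.14 FPKM.

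For the morpholino against uninjected in DMSO, 0 transporters were higher and 2 lower at an unadjusted p under 0.05, slc6a9 and slc38a2, beside 1.45% and 2.67% of all tested genes. With either progesterone library left out, which bears on the fit only through the shared spread and the filter, 5 were lower, beside 7.56% without experiment 1 and 7.35% without experiment 2. The glycine carrier gene slc6a9 stood at 8.79 and 5.24 FPKM with the morpholino, against 14.4 and 16.0 FPKM in uninjected cells, a log2 difference of -1.05 ± 0.38 (limma adjusted p = 1). The gene slc38a2, which encodes the neutral amino acid carrier SNAT2, stood at 17.0 and 33.6 FPKM with the morpholino, against 44.1 and 59.0 FPKM in uninjected cells. After scaling, 0 were higher and 2 lower, beside 1.81% and 2.39%, with the slc1a5 entry ENSDARG00000090706 in place of slc38a2. The glutamate transporter gene slc1a8b had the largest positive difference, 0.74 ± 0.38, at 3.92 and 5.21 FPKM against 1.96 and 2.69 FPKM. For the morpholino with progesterone against uninjected, 3 transporters were higher (slc6a15, slc1a4 and the slc1a5 entry ENSDARG00000090706) and 1 of the 26 lower (slc7a6os) at an unadjusted p under 0.05, beside 1.77% and 23% of all tested genes. The lowest others were slc43a1a, of the large neutral amino acid carriers, at 14.6 and 5.32 FPKM with progesterone against 17.9 and 19.1 FPKM in uninjected cells, and slc38a4, at 23.4 and 64.3 FPKM against 63.7 and 88.1 FPKM. None of the 26 passed at an adjusted p of at most 0.05 in these 2 comparisons.

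Of the enzymes around asparagine, alanine and glutamate the table holds 48, and 29 were tested. For progesterone against DMSO with the morpholino 0 passed, and 1 was higher and 7 lower at an unadjusted p under 0.05, beside 1.88% and 19.8% of all tested genes. After scaling 6 were higher and 4 lower, beside 7.45% and 9.49%. Without the progesterone library of experiment 1, 1 was higher and 12 lower, beside 3.83% and 43.1%. Leaving out that of experiment 2 moved these counts too, and in both of these fits the progesterone group is a lone library. The list's median log2 fold change was -0.36, against -0.58 for all tested genes. The gene psat1, the phosphoserine aminotransferase of serine synthesis, stood at 48.8 and 12.4 FPKM with progesterone, against 7.63 and 7.79 FPKM with the morpholino in DMSO (1.57 ± 0.61, limma adjusted p = 0.215). The gene bcat1, the cytosolic branched-chain aminotransferase, stood at 12.99 and 4.35 FPKM against 4.11 and 1.33 FPKM, and oat, the ornithine aminotransferase, at 1.97 and 4.98 FPKM against 1.05 and 1.63 FPKM. The lowest were gad1a, which makes the transmitter GABA from glutamate and was listed at 0 in both progesterone libraries against 7.09 and 4.01 FPKM, the glutaminase gene glsb, at 0.825 and 1.59 FPKM against 4.71 and 10.8 FPKM, and adssl, of adenosine monophosphate synthesis, at 11.8 and 4.06 FPKM against 36.3 and 22.9 FPKM. For the morpholino against uninjected in DMSO, 2 of these genes were higher and 1 lower at an unadjusted p under 0.05, beside 1.45% and 2.67%. After scaling they were 2 and 0, beside 1.81% and 2.39%. The asparaginase gene aspg stood at 3.82 and 8.40 FPKM with the morpholino against 0.872 and 2.199 FPKM, and the aspartate aminotransferase gene got1 at 6.78 and 3.01 FPKM against 12.4 and 9.67 FPKM. For the morpholino with progesterone against uninjected, 3 were higher and 4 lower, beside 1.77% and 23%, or 2 and 12 without the progesterone library of experiment 1, beside 3.17% and 45.7%, with bcat1 the furthest up (1.88 ± 0.61, limma adjusted p = 0.153) and glsb the furthest down (-2.33 ± 0.47, limma adjusted p = 0.113).

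Known genes of the amino acid response around ATF4 had the highest median of the 4 lists in this contrast, that of progesterone against DMSO with the morpholino. The list holds 56 genes in the table, 49 of them tested, and shares some transporters and psat1 with the lists above. It was drawn from textbook targets with earlier results of these libraries known. For progesterone against DMSO with the morpholino 0 passed at an adjusted p of at most 0.05, and 15 were higher and 0 lower at an unadjusted p under 0.05, beside 1.88% and 19.8% of all tested genes. Scaled, 25 were higher and 0 lower, beside 7.45% and 9.49%. Of the 49, 40 lay above the median of all tested genes, and their own median log2 fold change was 0.37, against -0.58. Without the progesterone library of experiment 2 the counts were 23 higher and 1 lower of 48, beside 5.07% and 17.7%, and without that of experiment 1 they were 15 and 13, beside 3.83% and 43.1%.

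The gene sesn2, a sestrin that binds leucine and restrains mTORC1, stood at 20.3 and 12.96 FPKM with progesterone, against 2.18 and 1.70 FPKM with the morpholino in DMSO (2.56 ± 0.38, limma adjusted p = 0.141). The stanniocalcin gene stc2a stood at 23.0 and 3.54 FPKM against 0.928 and 0.978 FPKM (2.42 ± 0.75, limma adjusted p = 0.168). The lowest of the list were ddit4, an mTORC1 inhibitor gene, at 14.3 and 0.062 FPKM with progesterone against 11.8 and 8.01 FPKM, eif4ebp3l, of the translation repressors, at 10.2 and 0 FPKM against 8.79 and 6.93 FPKM, and jdp2, a basic leucine zipper factor gene, at 39.7 and 8.49 FPKM against 63.4 and 32.4 FPKM. In each of these 3 the low value is that of experiment 2. Of the ATF4 genes themselves, atf4b1 stood at 113.7 and 107.1 FPKM with progesterone, 88.4 and 100.5 FPKM in morpholino DMSO cells and 130.3 and 133.5 FPKM in uninjected cells, whereas atf4b2 had 71.7 and 22.2 FPKM with progesterone, 60.5 and 36.1 FPKM in morpholino DMSO libraries and 80.7 and 94.2 FPKM in uninjected ones. ATF4 is regulated mainly at translation, which FPKM does not measure.

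In the comparison of morpholino and uninjected cells in DMSO, 2 genes of the amino acid response list were higher and 5 lower at an unadjusted p under 0.05, beside 1.45% and 2.67% of all tested genes. After scaling they were 2 and 6, beside 1.81% and 2.39%. The count of lower genes was 12 of 48 without the progesterone library of experiment 1, beside 7.56%, and 13 of 48 without that of experiment 2, beside 7.35%. The furthest down were stc2a, at 0.928 and 0.978 FPKM with the morpholino against 7.20 and 5.81 FPKM, chac1, a glutathione-degrading enzyme gene, at 11.98 and 14.2 FPKM against 44.0 and 50.1 FPKM, and herpud1, of endoplasmic reticulum protein quality control, at 7.53 and 10.8 FPKM against 21.8 and 29.0 FPKM. The furthest up were nupr1a (matched through a RefSeq synonym of its name in the table), a small stress-response protein gene, at 23.4 and 37.99 FPKM with the morpholino against 3.72 and 5.90 FPKM (2.44 ± 0.42, limma adjusted p = 0.805), then ddit4, and ppp1r15a, a phosphatase subunit gene that reverses the eIF2 alpha mark, at 24.1 and 22.3 FPKM against 10.8 and 11.2 FPKM. With progesterone and the morpholino against uninjected, 13 were higher and 2 lower at an unadjusted p under 0.05, beside 1.77% and 23%, and after scaling 23 and 0, beside 7.43% and 8.76%. Without the progesterone library of experiment 1 the counts were 10 and 14, beside 3.17% and 45.7%, and without that of experiment 2 they were 23 and 2, beside 4.31% and 20.5%. The sesn2 gene was the furthest up (2.32 ± 0.38, limma adjusted p = 0.0928). After median-ratio scaling 1 gene of the list passed at an adjusted p of at most 0.05, cbsb, which encodes cystathionine beta-synthase.

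Of the genes of amino acid sensing the table holds 45, and 39 were tested. For progesterone against DMSO with the morpholino 0 passed. At an unadjusted p under 0.05, 1 was higher (eif2s1b) and 4 lower (mios, tsc1a, lamtor2 and sec13), beside 1.88% and 19.8% of all tested genes, and after scaling 4 and 3, beside 7.45% and 9.49%. Without the progesterone library of experiment 1, 4 were higher and 13 lower, beside 3.83% and 43.1%. The list's deposited median log2 fold change was -0.33, against -0.58 for all tested genes. The highest were the sestrin genes sesn3, at 34.6 and 57.6 FPKM with progesterone against 9.92 and 39.1 FPKM, and sesn1, at 19.1 and 40.5 FPKM against 9.06 and 18.2 FPKM, followed by the S6 kinase gene rps6kb1a. The lowest were the Ragulator subunit gene lamtor2, at 0 and 2.56 FPKM against 10.7 and 10.5 FPKM, tsc1a, of the mTORC1 inhibitor complex, at 0.775 and 0.0855 FPKM against 6.17 and 4.28 FPKM, and lamtor1. Paralogs of tsc1a, eif2s1b and rps6kb1a had differences of the opposite sign. These were 0.47 ± 0.42 for tsc1b, -0.88 ± 0.42 for eif2s1a and -0.71 ± 0.84 for rps6kb1b on the log2 scale. The gene tsc2, of the same complex as tsc1a, had 0.71 ± 0.37. For the morpholino against uninjected in DMSO 2 were higher at an unadjusted p under 0.05, sesn3 and sesn1, and 0 lower, beside 1.45% and 2.67%. These counts moved with either progesterone library left out, which bears on the fit only through the shared spread and the filter. After scaling, 1 was higher, sesn3, and 0 lower, beside 1.81% and 2.39%. The gene of the GCN2 kinase, eif2ak4, was listed at 0 in all 6 libraries. With no annotation named, this does not show that the gene was silent.

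**Figure D4:**
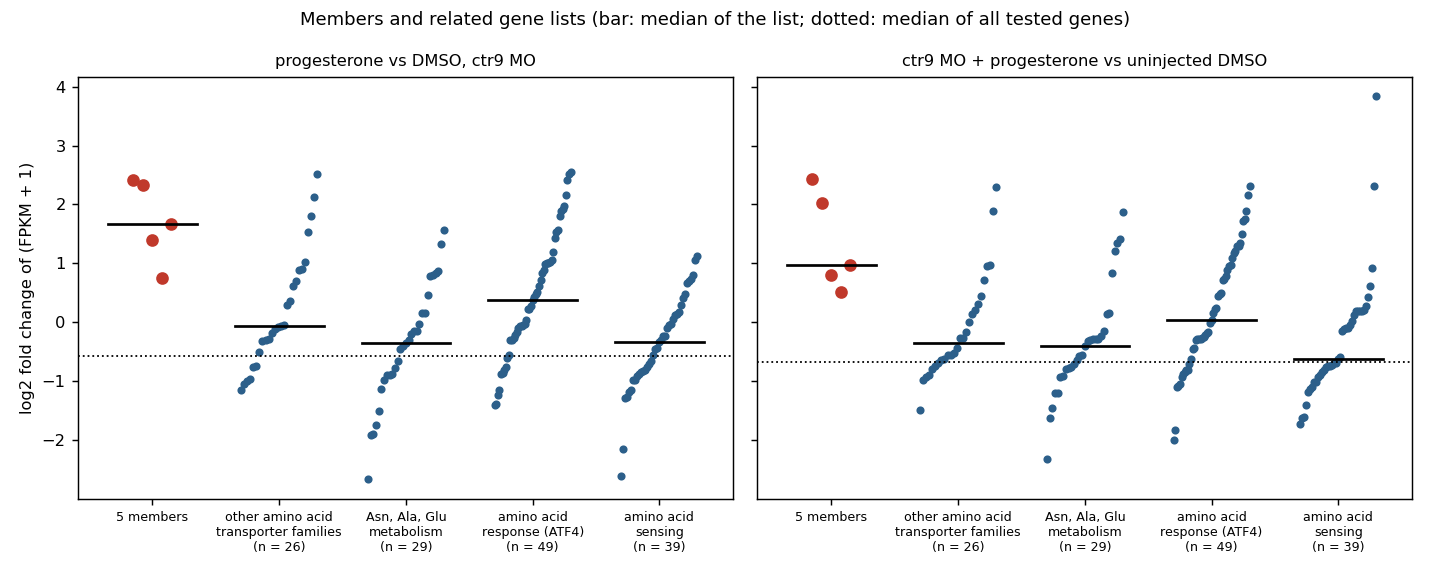
Log2 fold change of (FPKM + 1) of the 5 genes and of the tested genes of 4 related lists, for progesterone against DMSO with the morpholino (left) and for the morpholino with progesterone against uninjected in DMSO (right). Points are genes, bars list medians and the dotted line the median of all tested genes. On the left the list medians are -0.07, -0.36, 0.37 and -0.33, and the median of all tested genes is -0.58.

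Over all tested genes, those nearest to the mean profile of the 5 were found by the same root mean square difference. Nearest was the slc1a5 entry ENSDARG00000016465, at 0.197. It was followed by mroh1, the tetraspanin gene TSPAN2 (2 of 2), srebf2, a regulator of sterol synthesis, the presenilin gene psen2, the mitochondrial arginase gene arg2, the cystathionine beta-synthase gene cbsb, MTMR3 (2 of 3), CAPN1 (1 of 2) and ccdc149b, at 0.303. Their correlation with the mean profile over the 6 libraries was between 0.931 and 0.989. The genes were picked for nearness to that profile, so a high correlation follows from the choice. The genes mroh1, TSPAN2 (2 of 2), arg2 and CAPN1 (1 of 2) were at most 0.879 FPKM in every library without progesterone. They thus passed the filter on low values only through the progesterone libraries. The gene cbsb stood at 47.3 and 33.3 FPKM with progesterone, against 11.1 and 8.46 FPKM with the morpholino in DMSO. Gene by gene, the 3 nearest to SLC7A5 were slc6a15, sesn2 and slc1a4, and the 3 nearest to slc3a2b were sesn2, cbsb and aldh1l2, a mitochondrial one-carbon enzyme gene. Nearest to slc7a3a were MTMR3 (2 of 3), slc1a5 and rnls. Nearest to asns were mat1a, a copy of Metazoa_SRP and pld2, and nearest to gpt2 were por, MTMR3 (2 of 3) and antxr1d.

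**Figure D5:**
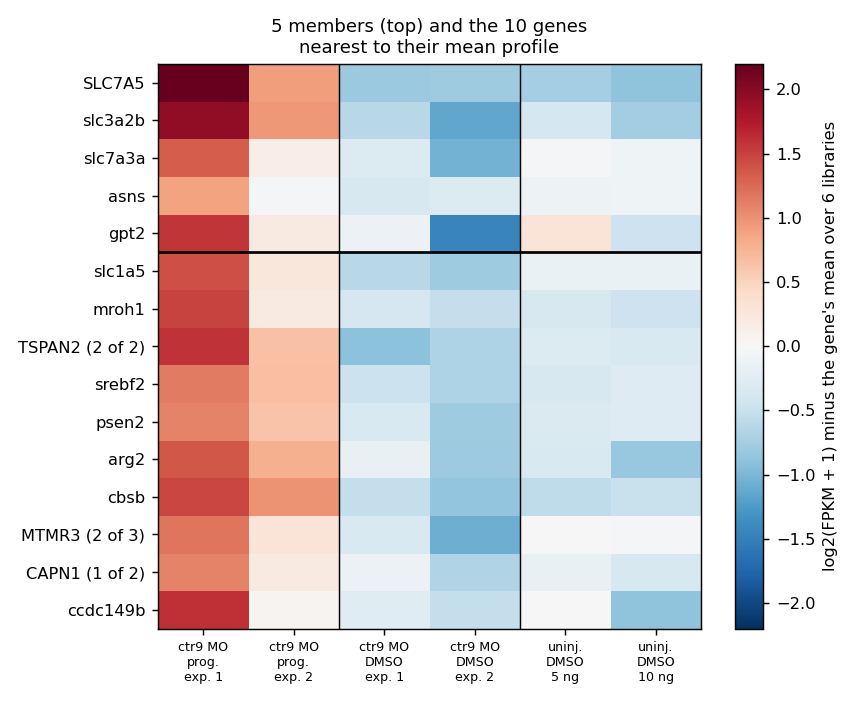
Log2(FPKM + 1) minus each gene's own mean over the 6 libraries, as colour, for the 5 genes (upper block) and the 10 genes nearest to their mean profile (lower block). The progesterone library of experiment 1 is the highest for each of the 15 genes.

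Sums over marker genes of several cell types differed between the same groups. Genes were counted by entry, and twist1b, ctslb, hbae1, lcp1 and the krt18 copies have more than 1 entry in their sums. Summed over 15 neural genes, FPKM was 50.9 to 52.1 with progesterone, against 164.8 to 184.5 in morpholino DMSO cells, and 105.6 to 126.3 in uninjected cells. The genes elavl4, neurod and neurog1 were at 0 in both progesterone libraries and at most 3.10 FPKM in any library. A large part of the progesterone sums was nova2, at 25.7 and 32.2 FPKM. It stood at 37.1 and 43.8 FPKM in morpholino DMSO cells and at 25.0 and 20.4 FPKM in uninjected cells. Summed over 14 yolk, endoderm and hatching gland genes, FPKM was 4.02 to 17.8 with progesterone, against 96.9 to 100.7. Of that sum apoeb alone gave 8.36 and 2.98 FPKM with progesterone, against 80.2 and 66.7. Over 8 endothelial genes the sum was 3.25 to 12.9, against 23.9 to 37.2, nearly all of it from fli1a, at 12.8 and 3.10 FPKM against 35.2 and 22.4 FPKM. The endothelial genes kdrl, cdh5, tie1 and egfl7 were under 1 FPKM in all 6 libraries, so this sum is mainly a reading of fli1a. Over 14 epidermal genes the sum was 86.8 to 101.2 with progesterone, against 134.0 to 225.1. The 12 muscle genes summed to 16.2 to 16.9 FPKM with progesterone, against 5.90 to 8.89. Most of it was acta1a, at 14.2 and 13.1 FPKM against 5.01 and 3.12 FPKM. The genes myf5, myog, mylpfa and tnnt3a were at 0 in both progesterone libraries. They were at most 0.880 FPKM in any library, and tnnt3a was at 0 in all 6, so their zeros show no loss. The 12 blood genes summed to 0.537 to 1.14 FPKM with progesterone, against 1.79 to 2.92, and the 8 pronephros genes to 0.248 to 1.69, against 3.13 to 5.24. The 8 otic genes summed to 16.6 to 23.3 FPKM with progesterone, against 22.8 to 28.8, and the 16 neural crest genes to 344.2 to 879.8, against 519.4 to 558.9. In uninjected cells the sums were 45.4 to 55.6 for yolk, endoderm and hatching gland, 49.4 to 65.5 for endothelium, 179.8 to 183.5 for epidermis, 6.34 to 8.73 for muscle, 3.25 to 5.69 for blood, 2.16 to 3.92 for pronephros, 53.0 to 63.3 for the ear and 608.3 to 708.8 for neural crest. After median-ratio scaling the otic sums were higher with progesterone, at 25.1 to 28.5 against 20.7 to 23.0 with the morpholino in DMSO. Most of the otic sum with progesterone was oc90, at 16.9 and 12.7 FPKM as deposited against 7.12 and 5.02 FPKM. The otic genes stm, at 0.881 and 0.380 FPKM against 7.28 and 8.01 FPKM, and dlx3b, at 0 in both against 6.89 and 2.38 FPKM, went the other way. The scaled sums of neural crest genes were higher too, at 590.0 to 948.0 against 446.8 to 471.3, and those of epidermal genes overlapped, at 93.6 to 173.5 against 107.1 to 204.2. The largest crest genes with progesterone were snai1b, sox10 and tfap2a. As deposited, snai1b stood at 303.1 and 101.1 FPKM against 66.5 and 103.2 FPKM. The gene sox10 stood at 191.1 and 60.0 FPKM against 160.2 and 125.5 FPKM. For tfap2a the values were 146.6 and 56.7 FPKM against 126.8 and 133.7 FPKM. The groups overlapped as deposited for each of these genes, so the sums do not speak for every crest gene. As deposited, no crest gene was higher in both progesterone libraries. Lower in both were pax3a, at 18.5 and 10.7 against 22.9 and 22.9 FPKM, tfap2c, at 2.66 and 2.48 against 4.34 and 5.34 FPKM, and id2a. These single-gene values are unscaled, so they do not show which genes make up the scaled rise. The scaled neural sums were 54.8 to 89.3 against 147.5 to 149.5, the yolk, endoderm and hatching gland sums 6.90 to 19.2 against 80.5 to 88.0, the endothelial sums 5.58 to 13.9 against 21.7 to 29.8, and the muscle sums 17.4 to 28.9 against 5.35 to 7.11. Scaled pronephros sums overlapped, at 0.268 to 2.89 against 2.84 to 4.19, and scaled blood sums were 0.921 to 1.22 against 1.63 to 2.33. The part of these shifts in the levels of the 5 genes was not tested.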

How the data were processed

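The authors deposited 1 table of FPKM values with gene identifiers and names. Per the file headers, a stray header line at its foot names the unit. It was removed (1 row), leaving 33827 rows, 92 of them ERCC spike-ins, of which 10 are among the 13155 genes tested. The spike-ins summed to 172.9 and 69.3 FPKM with progesterone and to 229.1 and 139.4 FPKM in morpholino DMSO libraries. In the uninjected libraries they summed to 1.96 FPKM (5 ng) and 22.4 FPKM (10 ng). The cause of this difference was not tested. TopHat2 2.0.11, Cufflinks 2.2.1 and cutadapt are named, without settings, per the submitters' processing notes, as are the builds Zv9 and hg19. No annotation is named. Columns were assigned by name: 6 libraries of 3 groups, the uninjected pair by group only. The sample of uninjected embryos in progesterone was not analysed here. The labels do not tell whether the 2 libraries of a group are separate clutches, so errors and p-values cover the spread among these libraries alone, part of which may be technical.

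Limma 3.58.1 in R 4.3.3 (lmFit, eBayes with trend) was run on log2(FPKM + 1) where the 6-library mean reached 1 FPKM, as 3 group means (3 residual degrees of freedom), adjusting by Benjamini-Hochberg over all genes tested. It was tested on simulated data with the same spread in every library and no library-wide shift. These libraries differ in both respects, so that test does not show how well the fit suits them. Median-ratio scaling divides each library by the median ratio of its genes to their geometric mean over the libraries, over genes above 0 in all 6, and leaves the set of genes tested as it was. Fragment totals are unknown. Steps of low FPKM values gave depths of 1.05 to 1.47 relative to the 5 ng library, from the most frequent ratio, which 3.28% to 5.69% of the compared genes shared, so this is rough. Members and lists were chosen with earlier results of these data known. From each list the 3 highest and 3 lowest tested genes per comparison could be named, and any that passed. The paralogs, the ATF4 and GCN2 genes, eif2s1b, tsc2, mios and sec13 were named after their values were seen. List symbols were matched to the table's names, or through synonyms in the RefSeq gene table of assembly GRCz12tu, from which no coordinates were taken.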

Additional observations from a re-analysis of the deposited data

How the results depend on the processing

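For progesterone against DMSO with the morpholino, each of the 5 genes stayed above the median of all tested genes in every alternative that tested it. The relative log2 fold change ran from 1.53 to 4.13 for SLC7A5, 1.74 to 3.58 for slc3a2b, 1.28 to 2.35 for slc7a3a, 0.92 to 1.56 for asns and 1.31 to 2.82 for gpt2. The median over the 5 was 2.25, and 1.31 with a pseudocount of 5. Leaving out a library gave 1.69 to 2.82. Against uninjected cells the median was 1.64, and 0.997 with a pseudocount of 5 (1.26 to 2.08 with a library left out). SLC7A5 was not tested with a minimum mean of 5 FPKM. For the morpholino against uninjected in DMSO the median was -0.23 (-0.48 to -0.04), and with scaling 1 of the 5 did not overlap in place of 2.

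The number of genes called depended on single libraries. For progesterone against DMSO it was 0, and with a library left out 0 to 4266, the highest without the progesterone library of experiment 1 (24 without that of experiment 2, and 1 without the morpholino DMSO library of experiment 1). It was 1 with median-ratio scaling, 1 with only the 4 libraries compared, and 21 with scaling and no progesterone library of experiment 2. For the morpholino with progesterone against uninjected it was 2, and 0 with a pseudocount of 0.1, 1 with no filter, 28 with a minimum mean of 5 FPKM, 12 with scaling, 80 with scaling and no progesterone library of experiment 2, 0 with only the 4 libraries compared, and 0 to 4552 with a library left out. For the morpholino against uninjected in DMSO it was 2, and 0 with a pseudocount of 0.1, 1 with no filter, 1 with a minimum mean of 5 FPKM, and 0 to 3 with a library left out. With 1 library of a pair left out, the lone library is assumed to vary like the others. The cause was not tested.

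No gene of the 4 lists was called as deposited. The ranges with a library left out depend on how many of all tested genes were called in the same fit. That number differed widely between fits, as given above. The ranges were not compared with it, so they do not show that any list stands apart from all tested genes. With a library left out, the calls for progesterone against DMSO ran from 0 to 19 in the amino acid response list, 0 to 13 in sensing (1 without the progesterone library of experiment 2), 0 to 6 in transporters and 0 to 9 in asparagine, alanine and glutamate metabolism. Against uninjected they ran from 0 to 17, 0 to 17, 0 to 4 and 0 to 10 in that order. Median-ratio scaling called 1 gene of the amino acid response list against uninjected, and 4 without the progesterone library of experiment 2, where 1 metabolism gene was also called.

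The titles give experiment numbers in each group, but only the columns of the morpholino groups carry them. Deviations from the group means of same-numbered morpholino libraries correlated at 0.0762 over 13155 genes. With 2 pairs and no label that ties the numbers to a shared clutch or day, this does not show whether the libraries are paired, and they were analysed without pairing. With the replicate block on these 4 libraries 3 genes were called, 1 higher and 2 lower, and the median over the 5 was 2.25. Depth in fragments is unknown, so no counting interval is given for any FPKM.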
